A study of Homo sapiens with 9 samples.

Results

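The proteasome is the barrel-shaped protease that destroys proteins tagged with ubiquitin. Its 20S core is made of outer alpha rings and inner beta rings, and 3 beta subunits, PSMB5, PSMB6 and PSMB7, carry the cutting sites. The 19S cap, with its PSMC ATPases and PSMD subunits, binds and unfolds the tagged protein. Interferon-treated and haematopoietic cells can build another form, the immunoproteasome, in which PSMB9, PSMB10 and PSMB8 take the places of PSMB6, PSMB7 and PSMB5 and which cuts peptides suited to MHC class I. The PSME1 and PSME2 proteins form the 11S activator that is often induced with it.

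Expression of the genes for these proteins was followed in 9 RNA sequencing libraries of NB4, an established human acute promyelocytic leukaemia line with the PML-RARA fusion that matures towards granulocytes in retinoic acid (RA). For the treatments, cells spent 24 h, with 1 library per condition, in MC_2580 (an LSD1 inhibitor per the labels, with no dose given; LSD1 is a histone demethylase), RA 0.01 uM, RA 1 uM, MC_2580 + RA 0.01 uM (called the combination here) or the vehicle DMSO. The knockout set holds 2 untreated LSD1 knockout (LSD1 KO) and 2 untreated wild-type (WT) libraries. The labels do not say how the knockout was made or how many clones were used, and both KO columns bear the name of 1 KO line. Nor is it said whether replicates were grown separately, so the p-values below reflect only how far these particular libraries spread, which may be technical.

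Members were the genes whose symbol begins with PSMA to PSMG, is followed by a number, and has a single row in both tables. Of 48 matching symbols 46 did, out of 36119 loci listed for the genotypes and 35856 for the treatments. The remaining symbols, PSMB8 and PSMB9, have 3 rows each because the tables also list alternate haplotypes of chromosome 6, whose rows are at 0. Their rows on chromosome 6 itself are set beside the members. Both of these rows bear the same listed locus (hg18 chr6:32916472-32955588), with a value for each gene. Of the 46 members, PSMA8 and PSMB11 (the testis and thymus subunits) were listed at 0 in all 9 libraries, and PSMD10P and PSMD15 stayed under 1 FPKM. PSMC3IP matches the symbol rule but is a recombination factor, not a subunit. The other members comprise 38 genes called constitutive here (subunits, assembly chaperones and regulators), and PSMB10, PSME1 and PSME2, which with PSMB8 and PSMB9 are called the 5 immune genes.

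Values are FPKM, fragment counts scaled to transcript length and library size, which compare levels between genes per length. Loci at 1 FPKM or more numbered 11974 to 13365 per library. Sequencing depth is unknown. Judged by the steps between low values, libraries differed up to 1.66-fold in reads per FPKM within the knockout table, with WT 2 highest, and ran from 0.732 to 0.901 of DMSO in the treatment table. The promyelocyte marker MPO stood between 2454 and 6518 FPKM in all libraries, while another defining marker, ELANE, was at 0.242 FPKM or less throughout. KDM1A, the gene of LSD1, had 14.0 and 16.8 FPKM in LSD1 KO libraries, against 49.8 and 66.6 FPKM in WT libraries. Its log2 difference was -1.84 (SE 0.23, limma adjusted p = 0.158 over all loci), and no KO value reached a WT value.

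The promoter windows of the 5 immune genes are shown because these genes were all higher under RA. The sequences are RefSeq's, build GRCh38.p14, and run from 250 bases before to 20 after the transcription start. Capitals mark matches, on either strand, to a core of the interferon-stimulated response element (GAAANNGAAA) or to a core of the antioxidant response element (TGACNNNGC), the site read by NFE2L1.
PSMB8 (chr6:32844028-32844297, strand minus): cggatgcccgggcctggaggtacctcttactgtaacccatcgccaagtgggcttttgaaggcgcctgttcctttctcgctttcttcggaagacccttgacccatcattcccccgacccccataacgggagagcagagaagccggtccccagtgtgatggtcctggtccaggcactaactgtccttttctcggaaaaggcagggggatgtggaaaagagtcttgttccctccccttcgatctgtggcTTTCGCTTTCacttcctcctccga
PSMB9 (chr6:32853942-32854211, strand plus): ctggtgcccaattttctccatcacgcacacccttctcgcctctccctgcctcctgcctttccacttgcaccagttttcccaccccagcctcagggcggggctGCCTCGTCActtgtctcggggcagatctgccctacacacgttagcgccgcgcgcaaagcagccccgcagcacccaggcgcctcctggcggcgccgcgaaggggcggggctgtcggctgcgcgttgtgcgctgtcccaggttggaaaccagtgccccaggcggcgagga
PSMB10 (chr16:67936831-67937100, strand minus): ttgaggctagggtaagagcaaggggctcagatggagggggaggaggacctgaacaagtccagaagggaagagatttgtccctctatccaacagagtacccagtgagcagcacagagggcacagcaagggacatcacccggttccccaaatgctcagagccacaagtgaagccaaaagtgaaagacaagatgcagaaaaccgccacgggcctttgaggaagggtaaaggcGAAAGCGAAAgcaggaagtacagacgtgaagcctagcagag
PSME1 (chr14:24135944-24136213, strand plus): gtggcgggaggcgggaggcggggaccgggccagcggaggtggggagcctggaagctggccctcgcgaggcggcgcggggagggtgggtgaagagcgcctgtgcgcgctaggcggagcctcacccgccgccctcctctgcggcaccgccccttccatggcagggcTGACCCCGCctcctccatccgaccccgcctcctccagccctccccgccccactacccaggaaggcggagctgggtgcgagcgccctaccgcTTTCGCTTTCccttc
PSME2 (chr14:24146591-24146860, strand minus): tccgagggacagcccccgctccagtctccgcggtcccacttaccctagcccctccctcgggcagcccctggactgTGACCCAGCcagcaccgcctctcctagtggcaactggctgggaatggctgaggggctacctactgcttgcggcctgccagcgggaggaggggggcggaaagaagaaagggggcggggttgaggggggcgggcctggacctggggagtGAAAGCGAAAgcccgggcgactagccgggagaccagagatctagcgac
PSMG1 (chr21:39183432-39183701, strand minus): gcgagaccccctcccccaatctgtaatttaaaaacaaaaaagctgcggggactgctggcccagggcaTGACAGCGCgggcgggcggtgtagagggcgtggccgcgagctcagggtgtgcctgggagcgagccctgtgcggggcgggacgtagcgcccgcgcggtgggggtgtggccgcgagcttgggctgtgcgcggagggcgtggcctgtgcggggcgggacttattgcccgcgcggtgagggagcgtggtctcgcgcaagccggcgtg

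In PSMB10 and PSME2 the interferon-type core began 21 and 28 bases before the start. In PSMB8 it began 4 bases before the start of one of 2 listed transcripts, and in PSME1 5 bases after the start; both matches lie on the opposite strand. PSMB9 holds none in its window; its divergent neighbour TAP1, a peptide transporter gene whose window shares 13 bases with that of PSMB9, holds 2 overlapping matches that begin 134 and 128 bases before the TAP1 start. The capitals in PSMB9 and PSMG1, and the first run in PSME1 and PSME2, are the antioxidant-type core. PSMG1, a chaperone of 20S assembly, is shown because it was the lowest member in 5 of the 6 treatment comparisons.

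Over the full windows of 300 bases, the interferon-type core was found in 4 of the 5 immune genes, in 2 of 32 constitutive genes with a window (PSMA4 and PSMB4), and in 4.38% of all 27305 genes. The antioxidant-type core was found in 3 of 5 immune genes, in 11 of 32 constitutive genes (34.4%), and in 16.1% of all genes. A match describes letters in the window and is not a measured binding site.

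All 5 immune genes were higher past 1.5-fold in each library that received RA than in DMSO, and no constitutive gene was. PSMB9 had 30.6 FPKM in MC_2580, 79.3 in RA 0.01 uM, 91.8 in RA 1 uM and 89.0 in the combination, against 22.7 FPKM in DMSO. PSMB10 had 51.0, 109.8, 148 and 143 FPKM in the same libraries, against 33.3 FPKM in DMSO. PSMB8 had 68.7, 176, 205 and 169.8 FPKM, against 67.3 FPKM in DMSO. For each of these catalytic subunits the 3 libraries with RA lay above both libraries without it.

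The 11S activator genes followed with smaller differences. PSME1 had 189 FPKM in MC_2580, 306 in RA 0.01 uM, 314 in RA 1 uM and 329 in the combination, against 179 FPKM in DMSO. PSME2 had 26.8, 54.0, 57.6 and 61.7 FPKM, against 23.9 FPKM in DMSO. RefSeq lists 6 pseudogenes of PSME2, so its level rests on how reads shared with them were assigned.

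On the log2(FPKM + 1) scale the 5 immune genes ranged from 0.77 (PSME1) to 1.76 (PSMB9) in RA 0.01 uM over DMSO, with a median of 1.37. In RA 1 uM over DMSO the median was 1.59, with PSMB10 at 2.12. In the combination over DMSO the median was 1.33, again with PSMB10 highest at 2.07. As shares of all loci compared, 9.56%, 12% and 15.5% were higher past 1.5-fold in RA 0.01 uM, RA 1 uM and the combination, so the share of immune genes (5 of 5) is far above this background and that of constitutive genes (0 of 38) below it. PSMB8 and PSMB9 bear the same listed locus, so the 5 immune genes are not 5 separate loci. With 1 library per treatment there is no test, and these comparisons share the DMSO library.

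Markers of the promyelocyte also differed between the libraries with RA and DMSO. The list of 6 markers summed to 6933 FPKM in MC_2580, 3611 in RA 0.01 uM, 3569 in RA 1 uM and 3461 in the combination, against 5663 FPKM in DMSO. Most of that sum is MPO, which had 6518, 2678, 2454 and 2873 FPKM, against 5301 FPKM in DMSO. Other markers of the list did not follow the sum. CD33 had 34.1, 42.7, 44.3 and 46.8 FPKM, against 32.0 FPKM in DMSO, and AZU1 117, 117, 98.1 and 82.7 FPKM, against 93.6 FPKM in DMSO. The granule proteases differed in opposite directions, with PRTN3 at 219, 762, 966 and 454 FPKM, against 178 FPKM in DMSO, and CTSG at 43.6, 10.3, 7.01 and 4.65 FPKM, against 58.6 FPKM in DMSO. The part of these markers in the immune gene differences was not tested.

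The authors' deposited table calls PSMB8 and PSMB9 different in 6 of 10 pairs of treatment libraries each, and PSMB10 in 5. It calls no other proteasome gene in any pair. Each pair sets 1 library against 1 library, and the share of all loci called in these pairs is not given here. PSME2 has a deposited p of 0.0297 for RA 0.01 uM against DMSO in the authors' deposited table, and PSME1 0.082, neither of them called there.

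MC_2580 alone gave 1 immune gene past 1.5-fold, PSMB10, with a log2 difference of 0.60, where 4.61% of loci were higher past 1.5-fold. PSMB9 stood at 0.42, PSME2 at 0.16, PSME1 at 0.07 and PSMB8 at 0.03. In this comparison the log2 differences of protein-coding genes followed GC content (Spearman rho 0.55 over 7441 genes, against 0.02 to 0.07 in the other 5 comparisons), and PSMB10, at 60.6%, has the highest GC content of the members. After the median difference of genes with like GC content was taken off, PSMB10 stood at 0.43, below 1.5-fold.

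Over the RA doses, all 5 immune genes rank DMSO, RA 0.01 uM, RA 1 uM from low to high, an order also seen in 27.9% of protein-coding genes. The steps from 0.01 to 1 uM were small. PSMB10 was 0.43 higher on the log2 scale, PSMB8 0.22, PSMB9 0.21, PSME2 0.09 and PSME1 0.04, and none passed 1.5-fold where 3.88% of loci did. Adding MC_2580 to RA 0.01 uM gave 0.38 for PSMB10, 0.19 for PSME2, 0.16 for PSMB9, 0.10 for PSME1 and -0.05 for PSMB8. None passed 1.5-fold, where 10.5% of loci were higher by that much.

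**Figure D1:**
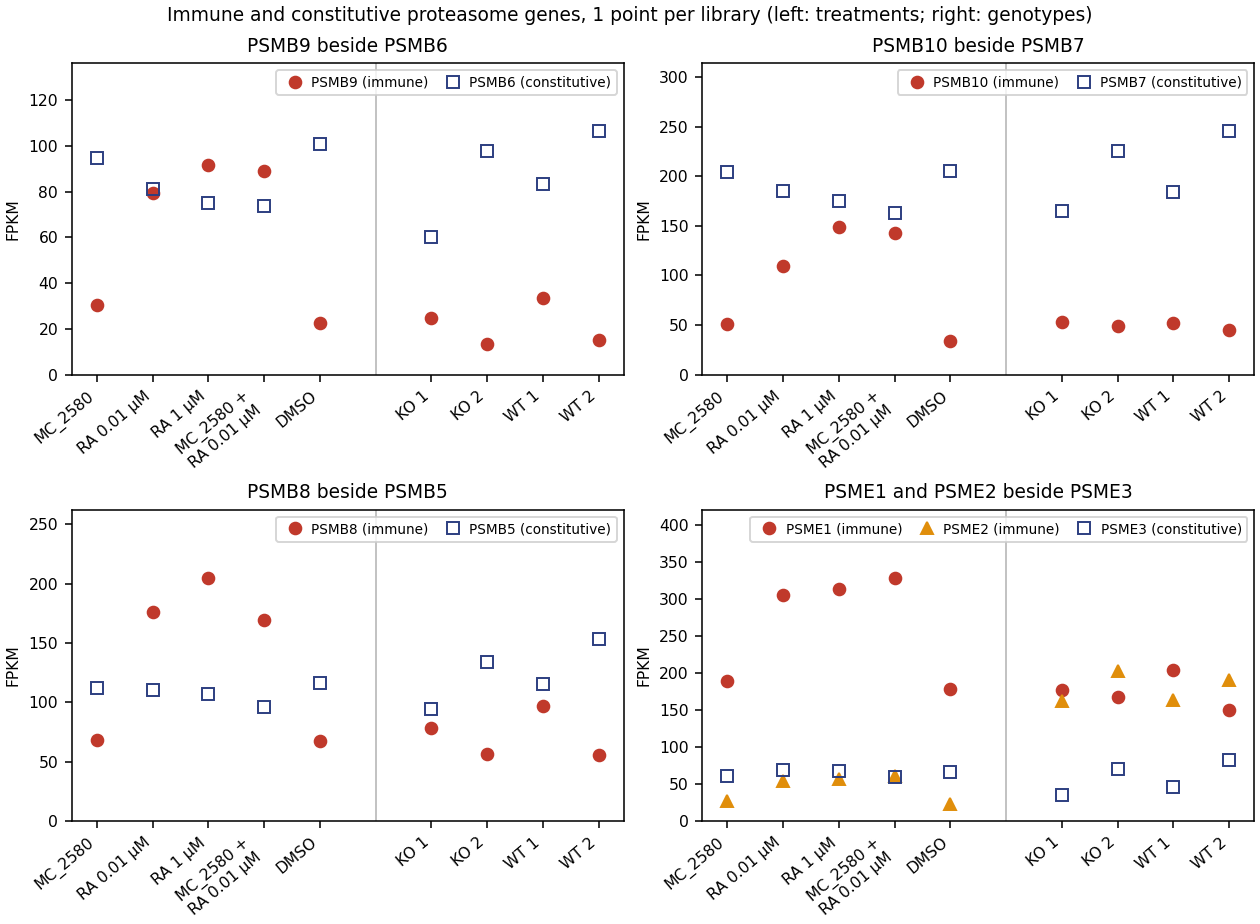
FPKM (vertical axis, from 0) of each immune proteasome gene (filled) beside its constitutive counterpart (open squares) in 5 treatment libraries and, right of the line, 4 genotype libraries; each point is 1 library. PSMB9, PSMB10, PSMB8 and PSME1 are highest in the 3 libraries with RA, while PSMB6, PSMB7 and PSMB5 are lower there than in DMSO.

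The constitutive catalytic subunits were slightly lower than in DMSO. PSMB6, which cuts after acidic residues, had 94.8 FPKM in MC_2580, 81.3 in RA 0.01 uM, 75.3 in RA 1 uM and 73.8 in the combination, against 101 FPKM in DMSO. PSMB7, the trypsin-like subunit, had 204, 185, 175 and 163 FPKM, against 206 FPKM in DMSO. PSMB5, the chymotrypsin-like subunit and target of bortezomib, had 112, 111, 107 and 95.9 FPKM, against 116 FPKM in DMSO. Every treated library lay below DMSO for all 3 genes, and none of the differences reached 1.5-fold.

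Set against each other, PSMB9 over PSMB6 was 0.323 in MC_2580, 0.975 in RA 0.01 uM, 1.22 in RA 1 uM and 1.21 in the combination, against 0.224 in DMSO. PSMB10 over PSMB7 was 0.249, 0.593, 0.847 and 0.873, against 0.162 in DMSO. PSMB8 over PSMB5 was 0.614, 1.59, 1.92 and 1.77, against 0.579 in DMSO. The immune catalytic genes thus made up 26.8% of the summed FPKM of the 6 catalytic genes in MC_2580, 49.2% in RA 0.01 uM, 55.5% in RA 1 uM and 54.6% in the combination, against 22.6% in DMSO. In the untreated genotypes the share was 32.8% and 20.7% in LSD1 KO libraries, against 32.2% and 18.7% in WT libraries, a range that includes the MC_2580 and DMSO values. PSME3, the nuclear 11S activator that does not belong to the interferon-induced pair, had 61.7, 69.1, 68.2 and 59.2 FPKM, against 67.1 FPKM in DMSO. These are transcript ratios, and in bulk samples fewer cells of a type and less RNA per cell cannot be told apart.

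Across the 38 constitutive genes, 34 were below DMSO in the combination, with a median log2 difference of -0.32, beside 52.1% of loci below DMSO and a median of -0.02 over all loci. Only 3 of the 38 were lower past 1.5-fold, near the background of 12.7% of loci. PSMG1 had 41.4 FPKM in MC_2580, 32.8 in RA 0.01 uM, 28.9 in RA 1 uM and 21.9 in the combination, against 48.0 FPKM in DMSO. PSMG3, another 20S assembly chaperone, had 82.4, 55.9, 58.6 and 46.5 FPKM, against 76.5 FPKM in DMSO. PSMD1, a scaffold subunit of the 19S base, had 53.3, 48.9, 46.8 and 36.7 FPKM, against 59.2 FPKM in DMSO. All 3 genes were lowest in the combination.

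The log2 differences in the combination over DMSO were -1.10 for PSMG1, -0.71 for PSMG3 and -0.68 for PSMD1. Against RA 0.01 uM alone, a comparison that shares the combination library, 34 of 38 constitutive genes were lower in the combination with a median of -0.20, against 47% of loci and a median of 0.02 over all loci. PSMG1 (-0.56) and PSMD14, the deubiquitinase of the 19S lid (-0.41), were lowest there, and none passed 1.5-fold lower, as 4.18% of loci did. Of the 5 treatment libraries the combination was the lowest for 30 of 38 constitutive genes, and for 30.5% of protein-coding genes.

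In the single treatments the constitutive medians lay nearer 0. In MC_2580 over DMSO the median was -0.09 and 32 of 38 genes were below DMSO, with PSMC1 (-0.33) and PSMD14 (-0.27) lowest, where 53.3% of loci were below. With the median of genes of like GC content taken off, this median was -0.03 and 25 of 38 were below. In RA 0.01 uM over DMSO it was -0.11 with 28 of 38 below, and PSMG1 (-0.54) and PSMG3 (-0.45) lowest, where 58.2% of loci were below. In RA 1 uM over DMSO it was -0.12 with 28 of 38 below, and PSMG1 (-0.71) and PSMB6 (-0.42) lowest, where 54.3% of loci were below. No constitutive gene passed 1.5-fold lower in MC_2580 or RA 0.01 uM (2.48% and 8.97% of loci did), and 1, PSMG1, did in RA 1 uM (9.49% of loci). Between RA 1 uM and RA 0.01 uM the constitutive median was -0.02 and 24 of 38 genes were lower in RA 1 uM (42.2% of loci were), with PSMC4 highest at 0.11 among constitutive genes, PSMG1 at -0.18 and PSME4 at -0.17, and none was lower past 1.5-fold, as 2.62% of loci were.

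The roles were not uniform. The alpha ring genes, which gate the core, were higher than DMSO in 5 of 6 cases in both RA doses, where 41.8% and 45.7% of loci were. Their medians were 0.09 and 0.13, with PSMA5 highest at 0.26 and 0.35, and PSMA7 was the gene below DMSO. In the combination 3 of 6 were higher, with a median of 0.02, where 47.9% of loci were higher. The 19S ATPases were below DMSO in 6 of 6 cases in the combination (median -0.27), where 52.1% of loci were. The 19S non-ATPases were below it in 10 of 11 (median -0.38) and the structural beta subunits in 4 of 4 (median -0.24). PSMD4, the ubiquitin receptor of the 19S cap, was the non-ATPase above DMSO, at 0.16.

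**Figure D2:**
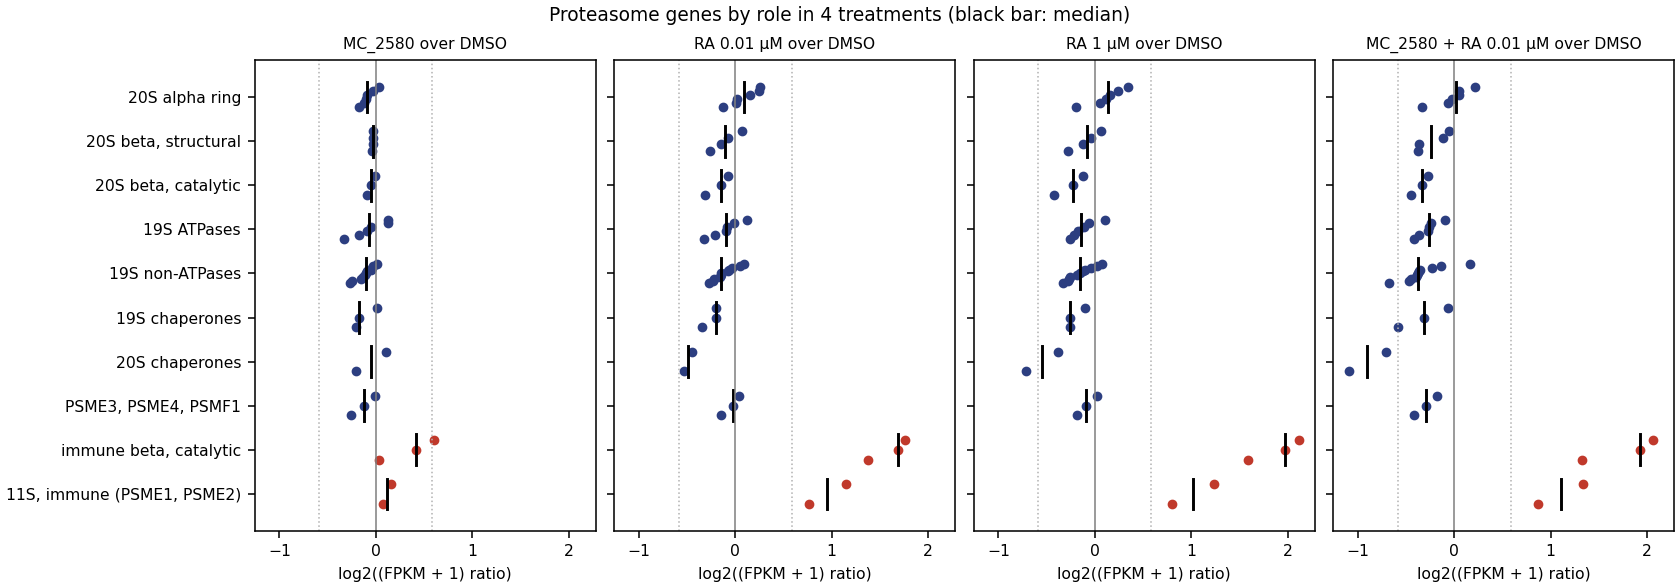
Log2((FPKM + 1) ratio) of each gene in 4 treatments over DMSO (horizontal axis), grouped by role from top to bottom; each point is 1 gene, black bars are medians, dotted lines mark 1.5-fold, and red marks immune genes. The immune rows lie right of the dotted line in the 3 panels with RA, and in the combination most constitutive rows lie left of 0 with the alpha ring near 0.

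To gauge library-to-library spread, the same rule was applied within a genotype in the knockout table. LSD1 KO 2 was higher past 1.5-fold than LSD1 KO 1 for 16 of 38 constitutive genes (11.5% of loci), and WT 2 than WT 1 for 13 of 38 (11.8% of loci). None was lower past 1.5-fold in either genotype, as 12.9% and 13.6% of loci were. The median log2 differences were 0.54 and 0.44, larger than any constitutive median under treatment. Of the immune genes PSMB9 was at -0.85 and -1.09 and PSMB8 at -0.47 and -0.79 in the same comparisons. The RA differences of PSMB9, 1.76 and 1.97, and of PSMB10 are larger than these. The constitutive medians under treatment are smaller than the medians within a genotype, but PSMG1 (-1.10 in the combination over DMSO) lay beyond its own differences of 0.53 and 0.50, and PSMG3 (-0.71) beyond its own of 0.28 and -0.05. PSMD1 (-0.68) did not exceed its own differences of 1.07 and 1.17. The differences of library 2 over library 1 were largely shared by the genotypes (Pearson r = 0.88 over 43 constitutive and immune genes, described across genes). They are thus not separate measures of spread, and a shift tied to library number cannot be told apart from it. The tables were made separately, so the spread in 1 may not hold in the other.

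Untreated LSD1 KO and WT cells were compared to see whether losing the demethylase alters proteasome genes. No proteasome gene was called by limma at an adjusted p of 0.05, among 42 members tested, where 15 of 13157 loci (0.114%) were called. No member had an unadjusted p under 0.05 either (7.16% of loci did), and the authors' deposited table calls none in either replicate. The share of all loci that the authors called between the genotypes is not given here, so their lack of calls cannot be weighed. The lowest unadjusted limma p was 0.0863, for PSMD4, whose adjusted p was 0.782 with limma. PSMD4 had 68.7 and 79.8 FPKM in LSD1 KO libraries, against 93.1 and 119 FPKM in WT libraries, a log2 difference of -0.50 (SE 0.22). It was the only constitutive gene with both KO values below both WT values, where 16.1% of loci had that pattern. KDM1A itself was not called (limma adjusted p = 0.158), so the lack of a call does not show that a gene is unchanged. The fit did not use library numbers, so differences between libraries 1 and 2 enter its SEs.

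The immune genes overlapped between genotypes. PSMB9 had 24.8 and 13.3 FPKM in LSD1 KO libraries, against 33.4 and 15.2 FPKM in WT libraries. PSMB8 had 78.6 and 56.7 FPKM in LSD1 KO, against 96.7 and 55.4 FPKM in WT. PSMB10 had 52.8 and 49.4 FPKM in LSD1 KO, against 52.0 and 45.3 FPKM in WT. For each gene the libraries within a genotype differed by as much as the genotypes did. Compared by library number, LSD1 KO over WT was -0.41 and -0.18 on the log2 scale for PSMB9. The same values were -0.30 and 0.03 for PSMB8, and 0.02 and 0.12 for PSMB10. Of all loci, 16.1% had every KO value below every WT value, and 17.9% had every KO value above.

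PSME1 had 177 and 167 FPKM in LSD1 KO libraries, against 204 and 150.0 FPKM in WT libraries. PSME2 had 163 and 203 FPKM in LSD1 KO, against 163 and 191 FPKM in WT. Their log2 differences were -0.02 (SE 0.24) and 0.04 (SE 0.22), beside -0.30 (SE 0.52) for PSMB9, -0.13 (SE 0.37) for PSMB8 and 0.07 (SE 0.17) for PSMB10. The limma adjusted p-values of the 5 genes lay between 0.952 and 0.998.

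The constitutive catalytic genes overlapped as well. PSMB5 had 94.3 and 134 FPKM in LSD1 KO libraries, against 116 and 153 FPKM in WT libraries. PSMB6 had 60.2 and 97.7 FPKM in LSD1 KO, against 83.4 and 106 FPKM in WT. PSMB7 had 165 and 225 FPKM in LSD1 KO, against 184 and 245 FPKM in WT. In each gene the first library of either genotype was the lower one. PSME3 had 35.4 and 70.2 FPKM in LSD1 KO, against 46.4 and 82.4 FPKM in WT.

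PSMB9 over PSMB6 averaged 0.274 ± 0.195 in LSD1 KO and 0.271 ± 0.182 in WT libraries (SD, n = 2 each; exact two-sided permutation p = 1). PSMB10 over PSMB7 averaged 0.269 ± 0.071 in LSD1 KO and 0.233 ± 0.0689 in WT (SD, n = 2 each; exact permutation p = 0.667), and PSMB8 over PSMB5 0.628 ± 0.29 in LSD1 KO and 0.599 ± 0.335 in WT (SD, n = 2 each; exact permutation p = 1). PSME1 over PSME3 averaged 3.69 ± 1.85 in LSD1 KO and 3.11 ± 1.82 in WT, and PSME2 over PSME3 3.75 ± 1.22 in LSD1 KO and 2.92 ± 0.856 in WT (SD, n = 2 each; exact permutation p = 0.667 for both). With 2 libraries against 2 the smallest p possible is 0.333, so none of the 5 ratios could pass 0.05 before or after adjustment. The SDs and permutation p-values ignore library number, so the difference between libraries 1 and 2 enters them. By library number, PSME2 over PSME3 was 4.61 and 2.89 in LSD1 KO, against 3.52 and 2.31 in WT. PSMB10 over PSMB7 was 0.32 and 0.22 in LSD1 KO, against 0.28 and 0.18 in WT. PSME1 over PSME3 was also higher in LSD1 KO for both numbers. For PSMB9 over PSMB6 and PSMB8 over PSMB5 the direction differed between the numbers.

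Of the 38 constitutive genes 33 had a KO mean below the WT mean on the log2 scale, where 6942 of 13157 loci did. Their median was -0.17, beside -0.02 over all loci. The count changed with the libraries that entered it. Without LSD1 KO 1, 13 of 38 were below and the median was 0.05, and without WT 2, 15 were below with a median of 0.06. Compared by library number, which keeps the difference between library 1 and library 2 out, LSD1 KO 1 was below WT 1 for 28 of 38 genes (median -0.20) and LSD1 KO 2 below WT 2 for 33 (median -0.16). KO was below WT for both numbers in 27 of 38 genes, where 38.6% of loci were. By role, 5 of 6 19S ATPases (median -0.30), 9 of 11 19S non-ATPases (median -0.17), 7 of 7 beta subunits and 4 of 6 alpha subunits (median -0.05) were below WT. After PSMD4 the lowest members were PSMC3 (-0.41, SE 0.45), PSMC5 (-0.38, SE 0.42) and PSMC1 (-0.33, SE 0.33), all ATPases of the 19S base. The highest were PSMD8 (0.25, SE 0.32), PSMD6 (0.18, SE 0.24), PSMC4 (0.18, SE 0.46) and PSMA2 (0.12, SE 0.19). PSMA2, with 288 and 268 FPKM in LSD1 KO and 249 and 261 FPKM in WT, was the only constitutive gene with both KO values above both WT values, where 17.9% of loci were. The T cell marker list, led by CD3D, summed to 229 and 189 FPKM in LSD1 KO, against 116 and 70.2 FPKM in WT, with CD3E near 0. CD79A, of the B cell list, had 7.87 and 8.77 FPKM in LSD1 KO, against 1.79 and 1.43 FPKM in WT. The epithelial marker EPCAM had 1.73 and 0.726 FPKM in LSD1 KO, against 10.96 and 12.91 FPKM in WT. The part of these markers in the proteasome differences was not tested.

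**Figure D3:**
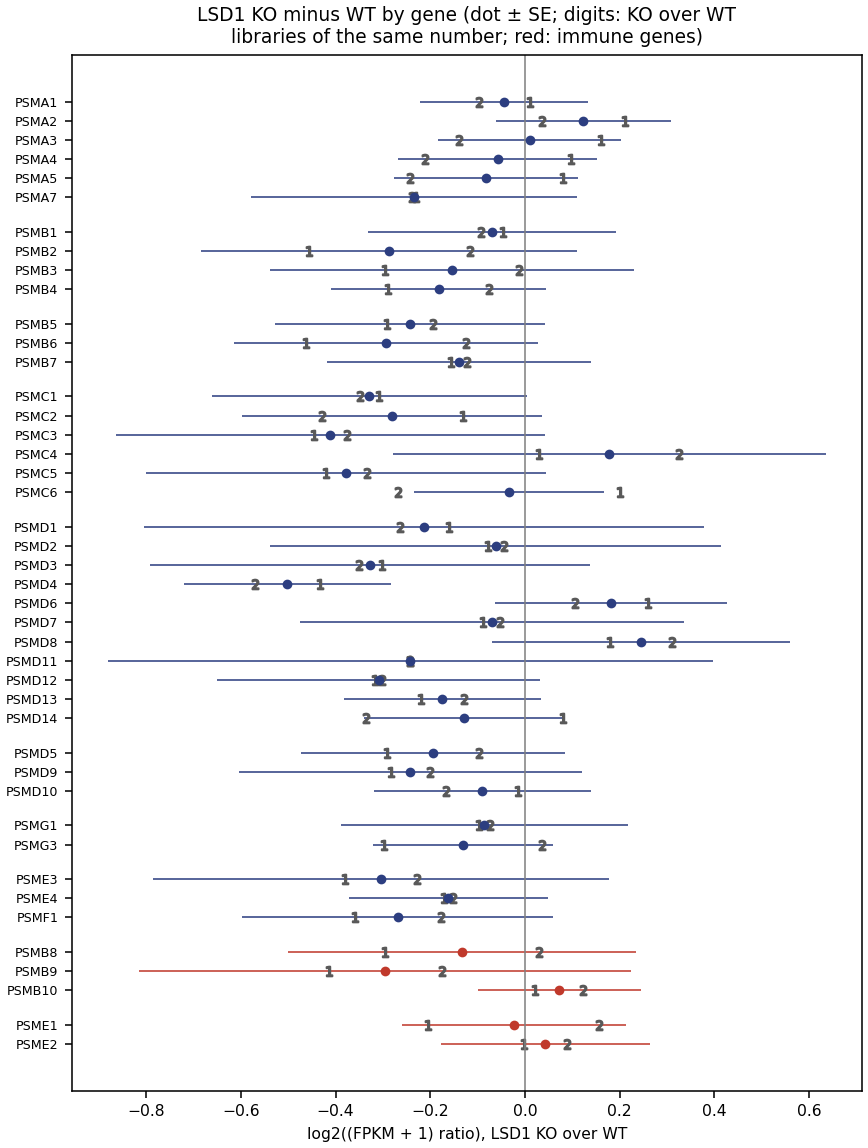
Log2 difference of LSD1 KO minus WT per gene (dot, with the limma SE as bar; horizontal axis), grouped by role, with the digits 1 and 2 giving KO over WT for libraries of that number; red marks immune genes. Most dots lie left of 0 with PSMD4 farthest at -0.50, and the bar of every gene except PSMD4 crosses 0.

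Within the knockout table, libraries of the same genotype also differed. LSD1 KO 2 was above LSD1 KO 1 for 31 of 38 constitutive genes, and WT 2 above WT 1 for 37 of 38, beside 53.3% and 52.9% of loci. The 19S ATPases had medians of 0.68 in LSD1 KO and 0.67 in WT, and the 19S non-ATPases 0.60 and 0.59. PSMD11, a 19S lid subunit, had 40.3 and 94.9 FPKM in LSD1 KO libraries, against 47.9 and 112 FPKM in WT libraries, and PSMD1 had 33.1 and 70.3 FPKM in LSD1 KO, against 37.1 and 84.7 FPKM in WT. The alpha ring had medians nearer 0, of -0.08 between the KO libraries and 0.19 between the WT libraries. Of its 6 genes, 5 were lower in library 2 in LSD1 KO and 0 in WT.

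Most immune genes ran the other way, as most alpha ring genes did in LSD1 KO only. Between the KO libraries the immune median, -0.09, was close to that of the alpha ring, and between the WT libraries it was -0.44. Of the 5 immune genes, 4 were lower in library 2 of each genotype (46.7% of loci were in LSD1 KO and 47.1% in WT). PSME2 was the exception in both. The interferon response list was also lower there, in 13 of 15 genes between the KO libraries (median -0.26) and 15 of 15 between the WT libraries (median -0.81), with no filter on low values. Library 2 also had more reads per FPKM in both genotypes, 1.35 for LSD1 KO 2 beside 1.04 for LSD1 KO 1, and 1.66 for WT 2, taking WT 1 as 1; its part in these differences was not tested. GC content moved little with them (Spearman rho 0.11 between the KO libraries and -0.01 between the WT libraries). The labels name no batch.

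**Figure D4:**
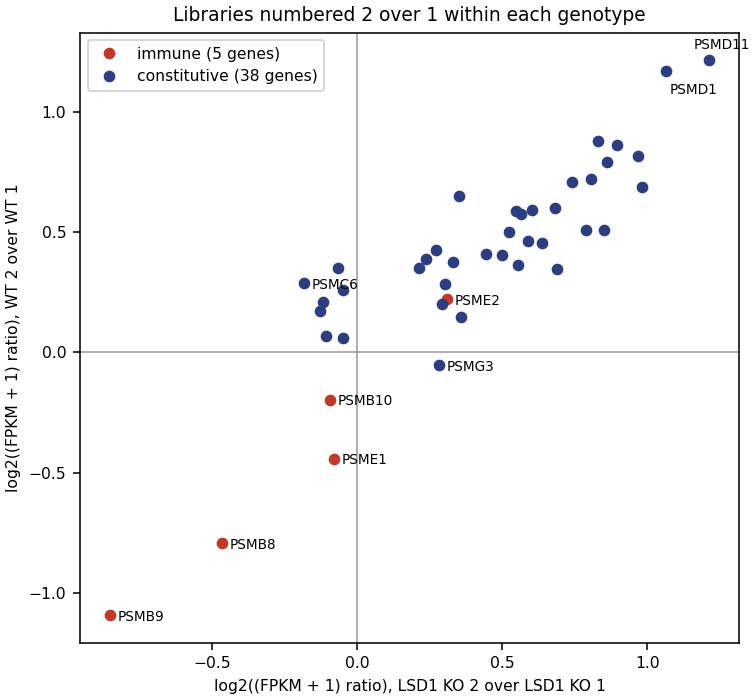
Log2((FPKM + 1) ratio) of library 2 over library 1 in LSD1 KO (horizontal axis) and WT (vertical axis), 1 point per gene. PSMB9 and PSMB8 lie lowest in both genotypes, PSME2 lies among the constitutive genes, and PSMD11 and PSMD1 lie highest.

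By level, PSMB1, a structural beta subunit, was the highest member in the genotypes, with means of 422 FPKM in LSD1 KO and 444 FPKM in WT, followed by PSMA4 at 385 FPKM in LSD1 KO and 402 FPKM in WT. PSMB1 had 374 and 470 FPKM in LSD1 KO libraries and PSMA4 had 391 and 378 FPKM, so these neighbours overlap. The lowest expressed was PSMD5, a 19S assembly chaperone, with 13.8 and 20.7 FPKM in LSD1 KO, against 17.1 and 22.2 FPKM in WT. In the treatment table the lowest was PSMC6, a 19S ATPase, at 10.8 FPKM in MC_2580, 10.5 in RA 0.01 uM, 10.8 in RA 1 uM and 8.93 in the combination, against 12.3 FPKM in DMSO. PSMC6 had 66.9 and 81.9 FPKM in WT, and RefSeq lists 3 pseudogenes of it.

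Genes that work with the proteasome were read from lists of pathway members. None of the 5 lists had a gene called by limma between LSD1 KO and WT, where 0.114% of loci were. No gene of these lists had an unadjusted limma p under 0.05, where 7.16% of loci did. Among 12 proteasome genes with other symbols, 11 had a value in every treatment library. Of these, 8 were lower in the combination than in DMSO (median -0.16), where 52.1% of loci were. ZFAND5, which stimulates the 26S proteasome, was higher at 0.66, and USP14, a deubiquitinase that binds the 19S cap, was at -0.43. The NFE2L1 list, genes that control proteasome transcription, had a median of 0.13 over 6 genes in the combination over DMSO, with NGLY1, the deglycosylating enzyme that activates NFE2L1, at -0.64 and NFE2L1 itself at -0.04. The ubiquitin genes and shuttle factors had a median of 0.14 over 10 genes. None passed 1.5-fold, where 15.5% of loci were higher and 12.7% lower by that much.

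The MHC class I list, which takes up proteasome products, had 7, 9 and 10 of 13 genes higher past 1.5-fold in RA 0.01 uM, RA 1 uM and the combination over DMSO, beside 9.56%, 12% and 15.5% of all loci. In MC_2580 it had 0 of 13, beside 4.61% of loci. ERAP2, which trims peptides in the endoplasmic reticulum, had 16.6 FPKM in MC_2580, 45.0 in RA 0.01 uM, 51.7 in RA 1 uM and 52.5 in the combination, against 13.6 FPKM in DMSO. TAPBP, which loads peptides, had 35.8, 57.0, 71.9 and 85.4 FPKM, against 25.2 FPKM in DMSO. CALR, a chaperone of the same list, was lower past 1.5-fold in all 3 libraries with RA, with 960.0 FPKM in RA 0.01 uM, 851 in RA 1 uM and 705 in the combination, against 1866 FPKM in DMSO.

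The interferon response list, whose inducers also induce the immunoproteasome, was counted with no filter on low values, so that all 16 genes entered each comparison. Higher past 1.5-fold were 4 of 16 in MC_2580, 5 of 16 in RA 0.01 uM, 10 of 16 in RA 1 uM and 16 of 16 in the combination over DMSO, where 4.61%, 9.56%, 12% and 15.5% of loci that reached 1 FPKM were. In RA 0.01 uM 2 of 16 were lower past 1.5-fold, where 8.97% of such loci were. In the combination over RA 0.01 uM, 15 of 16 were higher past 1.5-fold (10.5% of such loci), beside 0 of the 5 immune proteasome genes; whether the lists differ was not tested. OAS1 had 2.69 FPKM in MC_2580, 7.01 in RA 0.01 uM, 14.4 in RA 1 uM and 88.6 in the combination, against 0.944 FPKM in DMSO. IRF1, a transcription factor of the list singled out here after its values were seen, had 22.6, 119, 123 and 163 FPKM, against 15.5 FPKM in DMSO, and so was high in every library in which the immune proteasome genes were. Of the B cell markers, CD79A stood at 50.0 to 73.4 FPKM in the libraries with RA, against 2.33 FPKM in MC_2580 and 1.62 FPKM in DMSO, while MS4A1 was at 0 throughout.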

How the data were processed

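RNA sequencing of NB4 cells was read from 2 deposited tables, 1 of treatments (5 libraries) and 1 of genotypes (4 libraries). The authors deposited FPKM values with p-values and calls of pairwise library tests, per the file headers, and log2 ratios for the genotypes, which were not used. The submitters' processing notes list the build hg18 and, with no role or order, Cuffdiff, Cufflinks, CASAVA 1.8, TopHat2 2.0.10 and TopHat 1.3.1. Annotation and strandedness: not given in the sources used here. The offset of 0.001 FPKM in the knockout table was taken off, and failed treatment values were treated as missing (1039 loci).

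The genotypes were tested on log2(FPKM + 1) by limma 3.58.1 with a mean-variance trend (R 4.3.3). The fit took 13157 loci whose mean reached 1 FPKM in either genotype, and an adjusted p (Benjamini-Hochberg) of 0.05 was the threshold. Treatments, with 1 library each, were compared as log2((FPKM + 1) ratios), marked at 1.5-fold, with no test, for loci that reached 1 FPKM in either library. Fold changes of low genes are understated on this scale. The code was tested on simulated data. Symbols were matched to RefSeq (45 of 46 members). RefSeq lists 48 pseudogenes of the members and genes set beside, 13 of them of PSMC1, so reads shared with copies are uncertain. Protein sequences were not used here.

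The members and lists were chosen with earlier results of these data known. Genes were named by rule: PSMB5 to PSMB10, PSME1 to PSME3, KDM1A, the 4 highest and 4 lowest members between genotypes, the 2 highest and 2 lowest of at least 5 FPKM per treatment comparison, members past a threshold, the extremes of level, and up to 3 genes per pathway list; some genes of the pathway and marker lists are not reported here. Alternatives were other pseudocounts, filters and scalings, protein-coding genes with 1 locus, a replicate block, leaving out each library, and a 2-fold threshold. Correction for GC content and the replicate block within protein-coding genes were chosen after seeing the data. Python 3.11.15, pandas 2.3.3, numpy 2.4.6, scipy 1.17.1 and matplotlib 3.10.9 were used.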

Additional observations from a re-analysis of the deposited data

How the results depend on the processing

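Loci called between LSD1 KO and WT numbered 15, against 38 with a pseudocount of 0.1 FPKM, 0 with no filter, 7 when a genotype mean of 5 FPKM was required and 59 among protein-coding genes with 1 locus; leaving out any library gave 0 (0 to 0). No member was called under these settings. With the replicate block 0 loci and 0 members were called. The unadjusted limma p was under 0.05 for 3198 of 13157 loci and for 8 of 42 members, a smaller share. With the block within protein-coding genes, chosen after seeing the data, limma called 2945 of 9986 genes and 7 of 42 members, a smaller share. The 7 were PSMD4, PSMC3, PSMC5, PSMD12, PSMD3, PSMC1 and PSME3, all lower in LSD1 KO. This fit leaves 1 residual degree of freedom per gene. The numbers are shared labels only; the differences of library 2 minus library 1 in LSD1 KO and WT correlated at r = 0.86 over 9986 protein-coding genes, described across genes.

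Leaving out libraries moved the count of constitutive genes below WT between 13 and 36, the constitutive median between -0.45 and 0.06, the immune median between -0.24 and 0.20, and the cause was not tested. Within protein-coding genes with 1 locus, which drops PSMB8 and PSMB9, 3 of 3 immune genes stayed past 1.5-fold in each RA comparison, with medians of 1.14 (RA 0.01 uM) and 1.24 (RA 1 uM). At 2-fold, constitutive genes lower than DMSO numbered 0 in RA 1 uM and 1 in the combination, and immune genes higher in MC_2580 numbered 0 (2.23% of loci were). With GC content corrected, 0 immune genes passed 1.5-fold in MC_2580 and 1 constitutive gene passed it lower in the combination over RA 0.01 uM; the median shift also gave 1 there. With only 250 bases before the start, 2 of 5 immune promoters held the interferon-type core, beside 2 of 32 constitutive genes and 3.71% of all genes. Depth is unknown, and 2 libraries a genotype limit what can be called.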

Other observations

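Alpha subunit PSMA6 and the 20S chaperone PSMG4 are listed only in rows merged with another gene and are not members. The merged PSMA6 row had 299 and 286 FPKM in LSD1 KO libraries, against 257 and 286 FPKM in WT libraries. In the treatment table it had 74.6 FPKM in MC_2580, 67.3 in RA 0.01 uM, 66.4 in RA 1 uM and 69.6 in the combination, against 76.2 FPKM in DMSO. PSMG2, listed as TNFSF5IP1 and so outside the symbol rule, had 119 and 92.5 FPKM in LSD1 KO, against 135 and 102 FPKM in WT.

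Levels of some members differ between the tables. The WT mean was more than 2 times the DMSO value for 5 of the 43 constitutive and immune genes, where the median of this ratio was 1.16. PSME2 had 163 and 191 FPKM in WT and 23.9 FPKM in DMSO, and PSMC1 97.3 and 147 FPKM in WT and 26.0 FPKM in DMSO. RefSeq lists 6 pseudogenes of PSME2 and 13 of PSMC1. The tables were made separately, so no test was run across them, and the part of pseudogenes in these levels was not tested.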
